A study of Canis lupus familiaris with 18 samples.

Results

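The genes of the spliceosomal U RNAs were followed in formalin-fixed, paraffin-embedded (FFPE) tissue of canine high grade oligodendroglioma (HGO), a glial brain tumor, by RNASeq of total RNA after ribosomal RNA was removed. Members were chosen by symbol and by their measured level: every gene whose symbol is exactly U1, U2, U4, U5, U6, U11, U12, U4atac or U6atac and whose counts, summed over the 18 libraries, came to 10 or more. Such a symbol is carried by 1635 of the 29993 genes listed, and 704 of them reached the minimum. They belong to 6 of the 9 classes, since no row analysed here has the symbol U11, U4atac or U6atac. Just inside the minimum, 30 members had 10 or 11 summed counts, and just outside it 31 genes had 8 or 9. A further 454 genes with a U RNA symbol had no count in any library.

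The libraries are labelled as 11 French bulldogs, 4 boxers and 3 Boston terriers, all with prosencephalic HGO, and the boxers and Boston terriers form the comparison group. The question put to them was whether tumor expression differs in French bulldogs. Samples came from pet dogs at surgery, before any trial treatment, and no other genotype, treatment or time point is given in the labels. Age and sex were not used here. Counts of French bulldogs 2 and 8 were summed because the same case number stands in both library names, which leaves 10 French bulldogs against 7 comparison dogs, 17 units in all. The p-values measure the spread between these units.

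Spliceosomes cut introns out of pre-mRNA, and each is built from small nuclear ribonucleoproteins (snRNPs), which are a short U RNA with its proteins. In the major spliceosome U1 pairs with the start of the intron and U2 with the branch point. U4 and U6 then arrive base-paired to each other together with U5, and U6, once released from U4, forms the catalytic core with U2. U12 takes the place of U2 in the minor spliceosome, which removes a rare class of introns. U6 is transcribed by RNA polymerase III and the other classes named here by RNA polymerase II. Mammalian genomes carry a few active genes for each U RNA and many degenerate copies, which is why so many rows share a symbol.

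A few genes held most of the counts. The 704 members had 1597346 counts together, and the 10 with the highest sums held 77.3% of them, while the 383 members with fewer than 100 counts each held 0.944%. U1 had 37 members and 56.2% of the U RNA counts. U5 had 12 members and 16.0%, U4 had 123 members and 9.53%, U6 had 465 members and 8.54%, U2 had 63 members and 7.24%, and U12 had 4 members and 2.50%. These are shares of counts and not of molecules, since gene lengths were not used. Reads of near-identical copies can be assigned to the wrong copy, so values of single genes are uncertain and class totals depend less on that assignment. No pair of members held the same counts in all 18 libraries.

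Total counts ranged from 8212452 to 13169880 per library. U RNAs took 0.280% to 1.18% of the counts in French bulldogs and 0.425% to 1.19% in the comparison dogs. French bulldog 6 stood apart by its cell type markers. Its 9 measured oligodendrocyte lineage genes summed to 61.3 CPM (counts scaled by the size of the library), against 2258 to 8440 in the other French bulldogs and 2500 to 4452 in the comparison dogs, and OLIG2 and NKX2-2 were at 0. Its 3 astrocyte genes summed to 8.59 CPM and its 4 neuron genes to 0.62 CPM, against at least 393 and 51.4 CPM in any other unit. Its 2 endothelial genes, at 173 CPM, lay within the 83.4 to 574 CPM of the other French bulldogs. Its 6 macrophage and microglia genes summed to 3635 CPM, against at most 152 CPM in any other unit. Over the whole group 4 of the 6 had a positive log2 fold change in French bulldogs, with a list median of 1.52, but without French bulldog 6 it was 3 of the 6 and a median of 0.09. CD163 ran from 2.65 through 20.5 to 2880 CPM in French bulldogs, 7 of them above all comparison dogs, and from 6.78 through 8.74 to 12.5 CPM in the comparison dogs, with a log2 fold change of 5.07 (SE 1.52, unadjusted p = 0.00376 by edgeR), and of 1.15 (SE 0.45, unadjusted p = 0.0190) without French bulldog 6. AIF1, CSF1R and CD68 were at 2.06, 1.27 and 1.78 with that dog and at 0.36, 0.18 and 0.00 without it, and the microglial genes P2RY12 and TMEM119 at -0.17 and -0.38 with it and at -0.10 and -0.96 without it. The T cell gene CD2 was at 2.11 (SE 0.79, unadjusted p = 0.0160) with it and at 1.01 (SE 0.52) without it. The part of these markers in the results below was not tested, and the class results are given with and without this dog. In bulk tissue, fewer cells of a type and less RNA per cell cannot be told apart.

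The class totals of U2, U4, U5, U6 and U12 were higher on average in French bulldogs than in the comparison dogs, and that of U1 was lower. None of the 6 passed the test. By edgeR's quasi-likelihood F test on a table in which each class was replaced by its sum, adjusted over 16364 genes and sums, the adjusted p-values of the classes ran from 0.531 to 0.682. No gene or sum in that table had an adjusted p under 0.05, a background of 0%.

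U6, the catalytic RNA, had the largest log2 fold change of the 6 class totals, an order that did not hold throughout: without the highest gene of each class U5 was at 0.76 and U6 at 0.73, and against 3 of the comparison dogs U1 was further from 0. The U6 total ran from 268 through a median of 847 to 1361 CPM in French bulldogs, and from 364 through 458 to 642 CPM in the comparison dogs. Of the 10 French bulldogs 8 lay above all 7 comparison dogs, and French bulldog 9 lay below all of them. The means were 906 ± 356 CPM (SD, n = 10) and 469 ± 93.7 CPM (SD, n = 7). This is a log2 fold change of 0.96 with a standard error (SE) of 0.27, or 1.94-fold. The unadjusted p of edgeR's test was 0.00267, and 6.24% of that table had an unadjusted p under 0.05 with higher values in French bulldogs.

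**Figure D1:**
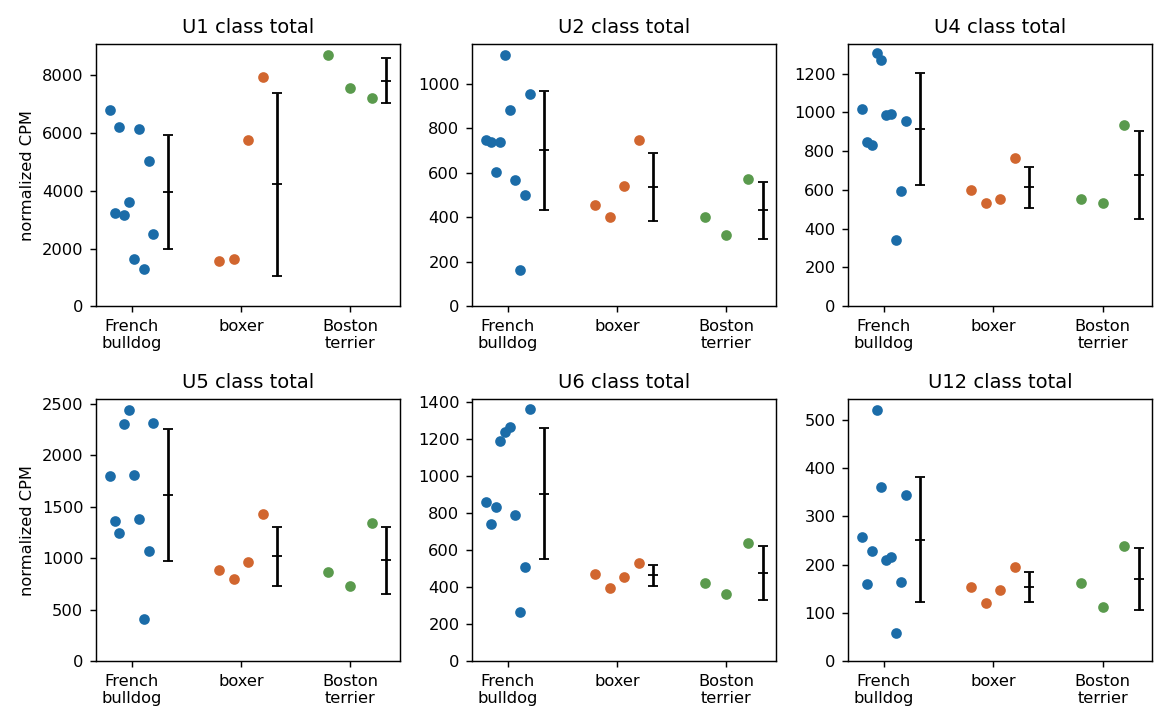
Normalized CPM (y axes, starting at 0) of the 6 U RNA class totals in each unit, with French bulldogs in blue, boxers in orange and Boston terriers in green, and the mean with its SD in black. For U6, 8 of 10 French bulldogs sit above every comparison dog, while for U1 no French bulldog exceeds the comparison median of 7210 CPM.

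U4, which holds U6 inactive until the spliceosome is assembled, ran from 344 through 973 to 1305 CPM in French bulldogs and from 531 through 553 to 937 CPM in the comparison dogs. The groups overlapped, with 6 French bulldogs above all comparison dogs. Its log2 fold change was 0.52 (SE 0.24). U5, which lines up the exons to be joined, ran from 408 through 1592 to 2443 CPM against 730 through 883 to 1433 CPM, with 5 French bulldogs above all comparison dogs and a log2 fold change of 0.69 (SE 0.29). The unadjusted p-values were 0.0396 for U4 and 0.0291 for U5.

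The RNAs that recognise the branch point behaved alike in direction. U2 ran from 161 through 736 to 1129 CPM in French bulldogs and from 320 through 453 to 746 CPM in the comparison dogs, with a log2 fold change of 0.52 (SE 0.29, unadjusted p = 0.0891 by edgeR). Its counterpart U12 ran from 58.8 through 221 to 519 CPM against 112 through 153 to 238 CPM, with a log2 fold change of 0.65 (SE 0.32, unadjusted p = 0.0572). In both classes 4 of 10 French bulldogs lay above all comparison dogs, and 9 of 10 lay above the comparison median.

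French bulldog 9 had the lowest total of all 17 units in every one of the 6 classes. Without it the U6 log2 fold change was 1.06 and that of U5 was 0.81. Without French bulldog 6 the values were 0.89 for U6, 0.67 for U5, 0.51 for U4, 0.48 for U2, 0.67 for U12 and -0.45 for U1, so no class turned in direction.

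The libraries of the comparison group are numbered in 2 series, one of 4 dogs (boxers 1, 3 and 4 and Boston terrier 2) and one of 3 (boxer 5 and Boston terriers 6 and 7), and the numbers of the second series also occur among the French bulldogs. What the numbers stand for is not stated. Against the series of 4 the log2 fold changes were 1.06 for U6, 0.89 for U5, 0.72 for U4, 0.80 for U12 and 0.65 for U2. Against the series of 3 they were 0.83, 0.48, 0.30, 0.47 and 0.37 in the same order. The sign was the same in both series for every class, and U1 was at -0.15 against the series of 4 and at -0.91 against the series of 3.

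U1, which marks the start of the intron, was the exception among the classes. Its total ran from 1291 through 3422 to 6814 CPM in French bulldogs and from 1570 through 7210 to 8708 CPM in the comparison dogs, with a log2 fold change of -0.54 (SE 0.40, unadjusted p = 0.202 by edgeR). Much of the total lay in 1 gene. ENSCAFG00000058175, the U1 gene with the highest mean, held from 1.78% to 79.1% of the class total. It ranged from 28.1 to 6914 CPM over the 18 libraries, 7.94 on the log2 scale, the widest range of any of the 216 members that passed the filter on low counts over the 18 libraries. Of all 16495 genes 544 had a wider range. The median range was 3.29 over the members and 2.52 over all genes.

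No library lay between 552 and 3177 CPM for this gene. At or below 552 CPM were 8 libraries. French bulldog 2 had 303 CPM, French bulldog 4 had 544, French bulldog 5 had 552, French bulldog 6 had 228, French bulldog 9 had 82.6 and French bulldog 11 had 544, while boxer 1 had 28.1 and boxer 3 had 330. At or above 3177 CPM were 10 libraries. French bulldog 1 had 4738 CPM, French bulldog 3 had 4429, French bulldog 7 had 4522, French bulldog 8 had 3177 and French bulldog 10 had 3615, boxer 4 had 4085 and boxer 5 had 5304, and Boston terriers 2, 6 and 7 had 6914, 5570 and 4891. French bulldogs and boxers were thus found at both levels and the 3 Boston terriers at the high level.

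**Figure D2:**
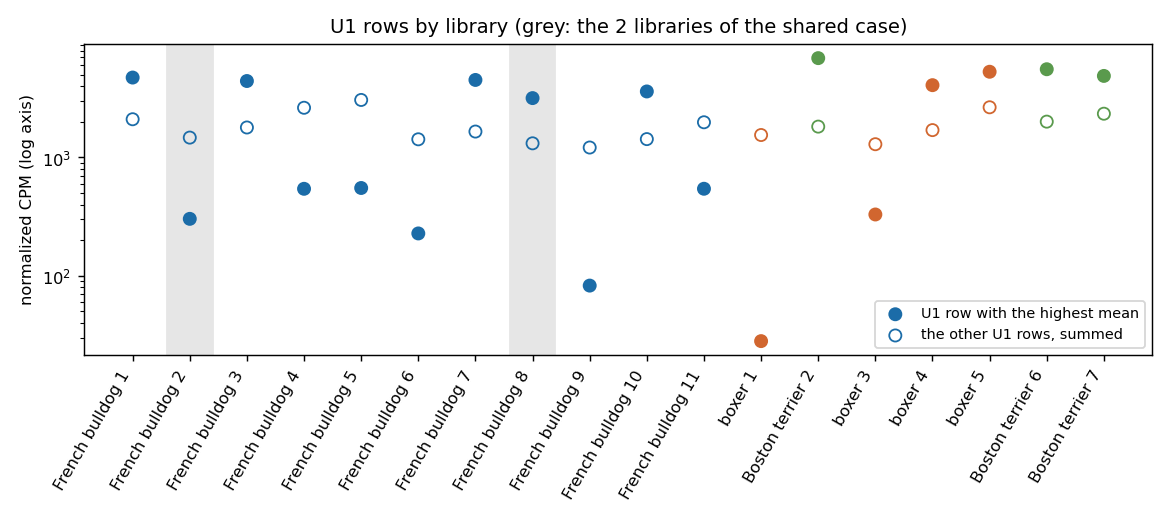
Normalized CPM (log axis) of the highest U1 gene (filled) and of the other 36 U1 genes together (open) in each of the 18 libraries, French bulldogs in blue, boxers in orange, Boston terriers in green, with the libraries of French bulldogs 2 and 8 shaded grey. The filled points fall into a low set of 8 and a high set of 10 libraries, and the shaded pair has 1 point in each.

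French bulldogs 2 and 8 fell on opposite sides of that gap although they come from the same case by their library names. The gene had 2716 counts in library 2 and 31211 in library 8, a ratio of 10.5 in CPM. Of the 16495 genes compared between these 2 libraries no other differed by as much. The median gap was 0.19 and the 99th percentile 1.33 on the log2 scale, with 0.5 CPM added. The log2 CPM of the pair correlated at a Pearson r of 0.981 across genes, above the 0.898 that was the highest of either with any other library. The other U1 genes summed to 1473 CPM in library 2 and 1317 CPM in library 8, a ratio of 0.895.

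Without ENSCAFG00000058175 the U1 class averaged 1864 ± 590 CPM (SD, n = 10) in French bulldogs and 1904 ± 467 CPM (SD, n = 7) in the comparison dogs. The log2 fold change was then -0.03 with an SE of 0.22 (unadjusted p = 0.907 by edgeR). The same step left U2 at 0.65, U4 at 0.43, U5 at 0.76, U6 at 0.73 and U12 at 0.56.

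The next U1 genes had log2 fold changes of both signs. ENSCAFG00000050677 ran from 438 through 623 to 856 CPM in French bulldogs and from 635 through 950 to 1097 CPM in the comparison dogs, with a log2 fold change of -0.51 (SE 0.17) and an unadjusted p of 0.00893. No French bulldog lay above the comparison median. ENSCAFG00000021576 ran from 242 through 581 to 1164 CPM against 311 through 450 to 779 CPM, with a log2 fold change of 0.39 (SE 0.29), and 8 of 10 French bulldogs lay above the comparison median. The fourth by mean, ENSCAFG00000055218, named after its values were seen, was at -0.51 (SE 0.20, unadjusted p = 0.0185). Over the 17 units the Spearman correlation with the summed U2, U4, U5, U6 and U12 counts was -0.11 for ENSCAFG00000058175 and -0.28 for ENSCAFG00000050677, but 0.79 for ENSCAFG00000021576.

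The other classes differed less between the libraries of the shared case, a single pair with no spread of its own. Library 8 against library 2 differed by 1.34 on the log2 scale for U1, and by -0.43 for U2, -0.19 for U4, -0.36 for U5, -0.28 for U6 and -0.61 for U12. These values hold no variation between dogs. Over the French bulldogs the SD of the log2 totals was 0.72 for U6 and ran from 0.57 for U4 to 0.85 for U12. Member by member, 154 of the 216 were lower in library 8, with a median log2 ratio of -0.28 where all genes had 0.02. The share of all genes lower in library 8 was not counted. Without regard to sign the median gap was 0.43 over the members and 0.19 over all genes. Beyond the 99th percentile of the gap over all genes lay 11 members, 10 of them lower in library 8. The exception was the U1 gene above.

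Gene by gene, 226 members passed the filter on low counts and 478 did not. The filter asks for enough counts in about as many units as the smaller group holds, so a gene can pass through 1 group alone, and the counts of members that follow are a description and no support for a direction. No member had an adjusted p under 0.05 by edgeR, as for all 16584 genes tested (0%); the members' adjusted p-values ran from 0.509 to 0.997. At an unadjusted p under 0.05, 77 members (34.1%) were higher and 6 (2.65%) were lower in French bulldogs, where 6.45% of all genes tested were higher and 3.11% lower. The median log2 fold change was 0.40 over these members and 0.03 over all genes.

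With a filter on the mean over all units instead, in which the French bulldogs are 10 of 17 and can still carry a gene, 196 members were tested. At an unadjusted p under 0.05, 69 (35.2%) were higher and 5 (2.55%) lower, against 6.79% and 3.13% of the 16438 genes tested that way. Against the comparison series of 4 dogs alone 85 of 272 tested members (31.3%) were higher and 1 (0.368%) lower at that p, where 2.80% of 17253 genes were higher and 1.32% lower. Against the series of 3 dogs alone 11 of 314 members (3.50%) were higher and 4 (1.27%) lower, where 1.94% of 17644 genes were higher and 1.90% lower. Without French bulldog 6 they were 65 of 212 members (30.7%) higher and 5 (2.36%) lower, where 4.54% of 16397 genes were higher and 3.97% lower.

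By class, beside the 6.45% of all genes that were higher and 3.11% that were lower, U6 had 51 of its 141 tested members higher and 1 lower at an unadjusted p under 0.05, and U5 had 6 of 8 higher and none lower. U2 had 8 of 26 higher (30.8%) and 1 lower (3.85%), U4 had 6 of 29 higher (20.7%) and 1 lower (3.45%), and U1 had 6 of 21 higher (28.6%) and 3 lower (14.3%). The lower shares of U2 and U4 were close to that of all genes. The U5 gene with the smallest unadjusted p by edgeR (0.00454), ENSCAFG00000026001, had 40.1 CPM in French bulldog 6 and at most 5.24 CPM in any other library. The U5 members were not counted without that dog. The 1 tested U12 gene was at an unadjusted p of 0.0587. Median log2 fold changes were 0.79 for U5, 0.49 for U6, 0.39 for U2, 0.35 for U1 and 0.10 for U4. In no tested member did all French bulldogs lie above all comparison dogs.

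**Figure D3:**
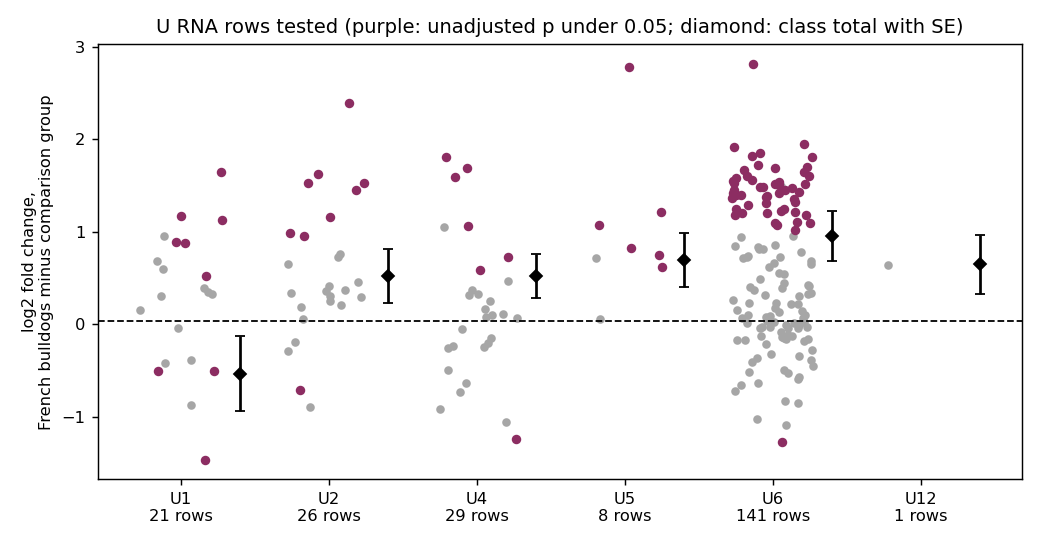
Log2 fold change of each of the 226 tested U RNA genes (y axis), French bulldogs minus comparison group, by class, with genes at an unadjusted p under 0.05 in purple, the class total with its SE as a diamond, and the median of all 16584 genes as a dashed line at 0.03. Most purple points lie above the line, 77 higher against 6 lower, and the U1 total lies at -0.54 although the median U1 gene is at 0.35.

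The highest U6 gene, ENSCAFG00000052178, held 14.9% to 38.9% of the class. It ran from 40.0 through 316 to 494 CPM in French bulldogs and from 67.8 through 91.3 to 195 CPM in the comparison dogs. In 8 of 10 French bulldogs it was above all comparison dogs, with French bulldogs 9 and 10 at 40.0 and 122 CPM. The log2 fold change was 1.52 (SE 0.39), with an unadjusted p of 0.00112 and an adjusted p of 0.509 by edgeR. The DESeq2 Wald test, the tool the study used, gave it an adjusted p of 0.0379.

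The next U6 genes had similar values. ENSCAFG00000021474 ran from 10.1 through 70.9 to 105 CPM in French bulldogs against 14.5 through 23.3 to 43.2 CPM, with a log2 fold change of 1.46 (SE 0.39). ENSCAFG00000051138 ran from 1.92 through 15.8 to 34.1 CPM against 3.83 through 6.29 to 13.9 CPM, with a log2 fold change of 1.42 (SE 0.45). In both, 7 of 10 French bulldogs were above all comparison dogs, and French bulldog 9 was below all of them.

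In total 3 members had an adjusted p under 0.05 by DESeq2, where 0.0815% of the 20850 genes with an adjusted p from that tool were called with higher values in French bulldogs. Besides the highest U6 gene these were ENSCAFG00000022081 (U2) and ENSCAFG00000057957 (U6). Both are low in counts. ENSCAFG00000022081 had from 0 to 29 counts per library and ran from 0 through 1.20 to 2.86 CPM in French bulldogs against a median of 0.215 and at most 0.495 CPM in the comparison dogs. French bulldog 9 was at 0, and the other 9 French bulldogs lay above all comparison dogs. Its log2 fold change was 2.40 (SE 0.58), with the smallest unadjusted p of any member, 0.000605, and an adjusted p of 0.509 by edgeR and 0.0211 by DESeq2. ENSCAFG00000057957 had 8 to 82 counts per library, with a log2 fold change of 1.70 (SE 0.44) and an adjusted p of 0.509 by edgeR and 0.0326 by DESeq2.

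Of the 10 members with the smallest unadjusted p, 9 are U6 genes and 1 is the U2 gene ENSCAFG00000022081, all with higher values in French bulldogs. The other 6 U6 genes among them were ENSCAFG00000020788, ENSCAFG00000058521, ENSCAFG00000022613, ENSCAFG00000027733, ENSCAFG00000022894 and ENSCAFG00000022993. Their log2 fold changes were 1.82, 1.81, 1.52, 1.38, 1.47 and 2.82 in that order, and each had an adjusted p of 0.509 by edgeR. ENSCAFG00000022993 had no count in 3 libraries, so its fold change depends on the prior count of the model. In ENSCAFG00000022894 all 10 French bulldogs, from 0.691 to 3.50 CPM, lay above the comparison median of 0.475 CPM.

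The leading genes of U5, U4 and U2 and the 1 tested U12 gene had log2 fold changes of the same sign as their totals. In U5, ENSCAFG00000021495 averaged 779 ± 294 CPM in French bulldogs and 506 ± 128 CPM in the comparison dogs, a log2 fold change of 0.62 (SE 0.27). ENSCAFG00000021436 and ENSCAFG00000025873 had log2 fold changes of 0.75 (SE 0.32) and 0.83 (SE 0.29), and for the latter 7 French bulldogs were above all comparison dogs. In U4, ENSCAFG00000059403 held 51.5% to 61.7% of the class and averaged 527 ± 173 CPM against 350 ± 88.2 CPM, a log2 fold change of 0.59 (SE 0.24). ENSCAFG00000056535 and ENSCAFG00000044876 were at 0.33 (SE 0.22) and 0.72 (SE 0.30).

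Among the 3 leading U2 genes the one with the highest mean had the smallest log2 fold change. ENSCAFG00000021169 ran from 66.1 through 181 to 262 CPM in French bulldogs and from 121 through 154 to 228 CPM in the comparison dogs, a log2 fold change of 0.18 (SE 0.22), while ENSCAFG00000021472 was at 0.73 (SE 0.38) and ENSCAFG00000054332 at 0.34 (SE 0.28). U12 rested on ENSCAFG00000025845, which held at least 98.4% of the class in every unit and had a log2 fold change of 0.64 (SE 0.32). The other U12 genes named by rank, ENSCAFG00000026328 and ENSCAFG00000025788, had at most 20 and 10 counts in any library and were not tested.

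Apart from U1 the classes moved up and down together across dogs. Over the 17 units the Spearman correlations among the totals of U2, U4, U5, U6 and U12 ran from 0.82 to 0.97 over the 10 pairs. U1 was at -0.08 to 0.16 with the same classes, and at 0.39 to 0.66 without its highest gene. These correlations are descriptions over units of both groups, which share library preparation, depth and scaling.

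The balance between classes was described by ratios of counts, which overlapped between the groups. The ratio of U4 to U6 counts ran from 0.704 to 1.28 in French bulldogs, with a mean of 1.06 ± 0.19 (SD, n = 10), and from 1.21 to 1.47 in the comparison dogs, with a mean of 1.36 ± 0.10 (SD, n = 7). No French bulldog lay above the comparison median of 1.34. The ratio of U2 to U6 counts averaged 0.780 ± 0.144 against 1.04 ± 0.19, and that of U5 to U6 averaged 1.78 ± 0.25 against 2.12 ± 0.26. U12 made up 17.9% to 41.4% of the U2 and U12 counts together in French bulldogs, with a median of 26.1%, and 20.8% to 29.4% in the comparison dogs, with a median of 25.3%, so the groups overlapped widely. These ratios were not tested.

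Other small RNAs were set beside the U RNAs as totals by symbol, without a test. Y RNAs, 5S rRNA and signal recognition particle RNA are, like U6, transcribed by RNA polymerase III. Y RNAs averaged 4176 ± 1628 CPM in French bulldogs and 1965 ± 660 CPM in the comparison dogs, and 5S rRNA averaged 560 ± 342 against 254 ± 93.6 CPM. C/D box small nucleolar RNAs (SNORD) averaged 2195 ± 1044 against 1502 ± 469 CPM. Over the 17 units the U6 total had a Spearman correlation of 0.89 with 5S rRNA, 0.87 with SNORD and 0.63 with Y RNA. Copies of the signal recognition particle RNA (Metazoa_SRP) averaged 7502 ± 4970 against 7288 ± 2064 CPM and had a correlation of -0.50 with U6. French bulldog 9, lowest in all U RNA classes, had the highest Metazoa_SRP total at 19754 CPM. The 1 gene with the most counts took 18.9% to 33.4% of a library in French bulldogs, with a median of 27.3%, and 19.1% to 27.4% in the comparison dogs, with a median of 21.9%. The part of these in the U RNA differences was not tested.

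Between the breeds of the comparison group the U RNAs showed no called difference. Boxers against Boston terriers gave adjusted p-values of 1 for all 6 class totals in a fit of all 3 breeds by edgeR, with 0% of 17696 genes and sums called. U6 averaged 464 ± 56.4 CPM in the 4 boxers and 476 ± 147 CPM in the 3 Boston terriers, a log2 difference of -0.04 (SE 0.43). U1 averaged 4221 ± 3159 CPM in boxers and 7824 ± 785 CPM in Boston terriers, a log2 difference of -0.89 (SE 0.61), with the highest U1 gene at the low level in boxers 1 and 3. Against boxers alone the U6 total of French bulldogs had a log2 fold change of 0.98 (SE 0.35), and against Boston terriers alone 0.93 (SE 0.39). The U1 total was at -0.08 (SE 0.47) against boxers and at -0.97 (SE 0.50) against Boston terriers. In the same order U2 was at 0.40 and 0.71, U4 at 0.59 and 0.44, U5 at 0.67 and 0.73, and U12 at 0.72 and 0.57.

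Of the 328 members tested between boxers and Boston terriers none had an adjusted p under 0.05, as for all 18018 genes (0%). At an unadjusted p under 0.05, 2 members were higher and 0 lower in boxers, where 1.15% of all genes were higher and 1.03% lower. The median log2 difference of the members was -0.03.

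The proteins that bind, transcribe and process the U RNAs were read from 7 lists with 113 genes, of which 93 were in the table by symbol and 92 were tested. None had an adjusted p under 0.05 by edgeR. At an unadjusted p under 0.05, 5 genes (5.43%) were higher and 1 (1.09%) was lower in French bulldogs, where 6.45% of all genes were higher and 3.11% lower, so the higher share was close to that of all genes. The median log2 fold change was 0.10, against 0.03 over all genes, with 64 genes above 0 and 28 below, where 53.6% of all genes tested were above 0. The higher share lay on either side of that of all genes when 1 unit was left out. There were 3 higher genes (3.26%) without French bulldog 1 or without boxer 5, where 5.96% and 4.62% of all genes were higher. There were 8 (8.70%, all genes 6.72%) without French bulldog 3, and 11 (12.0%, all genes 6.76%) without Boston terrier 7.

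The lists were tested in part, so their values do not stand for whole complexes, and 53.6% of all genes were above 0. Of 15 Sm and LSm proteins, which form the rings on the U RNAs, 8 were tested. Of these 7 were above 0, with a median of 0.27. Proteins of the U2 snRNP and of U5, U4/U6 and the tri-snRNP had 16 genes listed each. In both lists 12 of 14 tested genes were above 0, with a median of 0.15. Of 8 U1 snRNP proteins 6 were tested, with a median of 0.05, and SNRNP70 and SNRPA were not found by symbol. Genes of snRNA transcription had a median of 0.03 over 23 genes, and those of capping, export, assembly and processing 0.17 over 21 of 25. Of 10 U11/U12 proteins 6 were tested and 5 of them were below 0, with a median of -0.14.

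The 1 tested U11/U12 protein gene above 0 was ZCRB1. It ran from 37.2 through 54.2 to 70.2 CPM in French bulldogs and from 25.9 through 32.9 to 42.6 CPM in the comparison dogs, with 8 French bulldogs above all comparison dogs. Its log2 fold change was 0.62 (SE 0.16), with an unadjusted p of 0.00124 and an adjusted p of 0.509 by edgeR and 0.0379 by DESeq2. CENATAC, another minor spliceosome protein, averaged 5.11 ± 0.86 CPM against 6.82 ± 1.43 CPM, with a log2 fold change of -0.42 (SE 0.18).

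SNAPC1, a subunit of the complex that starts U RNA transcription, averaged 22.5 ± 6.11 CPM in French bulldogs and 15.0 ± 3.28 CPM in the comparison dogs, with a log2 fold change of 0.58 (SE 0.19). ZNF143, a transcription factor of U RNA promoters, was at 0.38 (SE 0.18). SNRPB2, a U2 snRNP protein, was at 0.70 (SE 0.30), and STRAP, which works with the SMN assembly machinery, at 0.39 (SE 0.15). SSB, the La protein that binds the ends of RNA polymerase III transcripts, was at 0.39 (SE 0.19). The unadjusted p-values were 0.00787 for SNAPC1, 0.0433 for ZNF143, 0.0303 for SNRPB2, 0.0200 for STRAP and 0.0590 for SSB, and the adjusted p-values by edgeR were at or above 0.509.

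In the remaining lists no tested gene had an unadjusted p under 0.05. The genes with the smallest p were LSM6 at a log2 fold change of 0.35 (SE 0.17) and SNRPG at 0.52 (SE 0.37) among the Sm and LSm proteins. For U1 they were LUC7L at -0.18 (SE 0.15) and SNRPC at 0.26 (SE 0.23). For U5 and the tri-snRNP they were TXNL4A at 0.37 (SE 0.18) and PRPF8, the large scaffold of the catalytic core, at 0.29 (SE 0.15). SF3A2, second in the U2 list, was at -0.29 (SE 0.17).

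**Figure D4:**
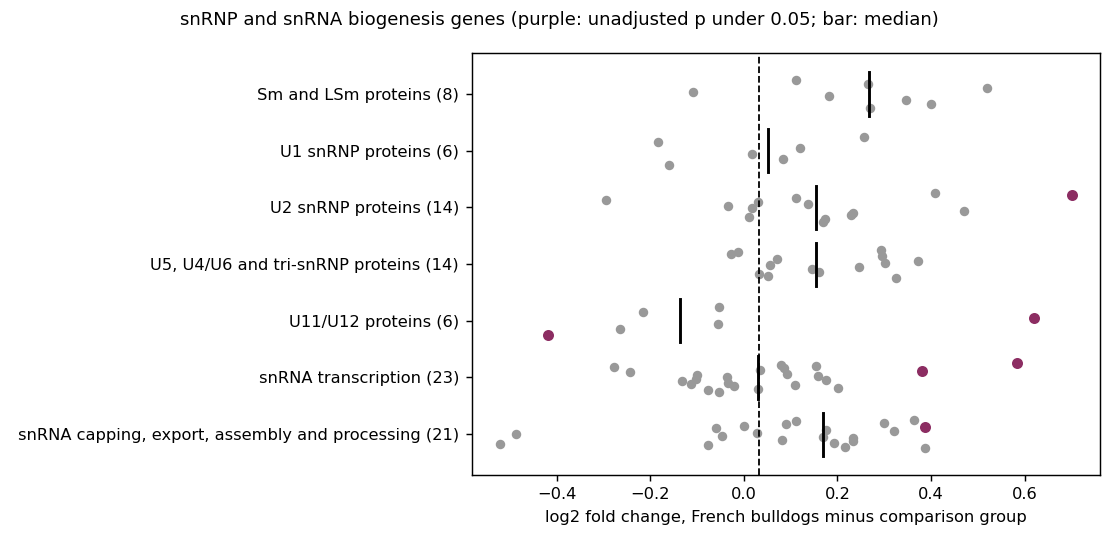
Log2 fold change (x axis), French bulldogs minus comparison group, of the tested genes in 7 lists of snRNP proteins and snRNA biogenesis factors, with genes at an unadjusted p under 0.05 in purple, list medians as black bars and the median of all genes as a dashed line at 0.03. The list medians run from -0.14 for U11/U12 proteins to 0.27 for Sm and LSm proteins, and 6 of the 92 points are purple.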

How the data were processed

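RNA from FFPE tumor scrolls was sequenced as paired-end reads after ribosomal RNA depletion. The authors trimmed the reads (Trimmomatic 0.33), mapped them to the dog genome canFam6 (HISAT2 2.1.0) and deposited raw counts per gene from featureCounts, without normalization. Strand and multi-mapping settings are not given in the sources used here. Rows pair Ensembl gene IDs with symbols, which were used as given. Breeds were taken from the labels.

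Counts of French bulldogs 2 and 8 were summed. Tests were edgeR's two-sided quasi-likelihood F tests (version 4.0.16 under R 4.3.3) after the group-wise filterByExpr filter, with TMM scaling, robust dispersions and no covariates, adjusted by Benjamini-Hochberg over every gene tested at a threshold of 0.05. SE was computed as the absolute log2 fold change over the root of the F statistic. Class totals were tested in a table in which member rows were replaced by their sums. CPM use the TMM library sizes; values of French bulldogs 2 and 8 apart come from scaling the 18 libraries separately. Ratios, shares and correlations were not tested. The libraries hold 8212452 to 13169880 counts and the summed case 17924670. Counting error alone leaves a level under 3 counts uncertain at this depth, and no value was removed at that limit.

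Alternatives were DESeq2 1.42.0 (the tool of the study), limma-voom (limma 3.58.1), other scalings and filters, other treatments of the shared case, each unit left out, each breed or library series of the comparison group alone, other sets of rows for the class totals, and a block over the dogs' numbers. A filter on a mean of 1 CPM over all units was added after the values were seen. The edgeR, DESeq2 and limma-voom fits of French bulldogs against the comparison group were first checked on simulated counts. The other fits were not simulated.

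The members and gene lists were chosen with earlier results of these data known. Named are the 3 members with the highest mean in each class, the 10 members with the smallest unadjusted p, members with an adjusted p under 0.05, the 2 genes with the smallest p in each protein list, and ZCRB1. French bulldog 9 and the members with the widest range were singled out after their values were seen. No sequence or position is given, since no genome of the build was used.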

Additional observations from a re-analysis of the deposited data

Results flagged for a closer look

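The U6 gene ENSCAFG00000058521 had 3.01 CPM in boxer 5, where the other 3 boxers lay at or below 1.80 CPM. The gap took up 0.943 of the range of the 4 boxers, above Dixon's 95% critical value of 0.829. It was the 1 result past that limit among 64 groups examined, the French bulldogs and the boxers for 6 class totals and 26 named members, and chance alone gives about 1 in 20.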

How the results depend on the processing

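All 6 class log2 fold changes of French bulldogs against the comparison group kept their sign under every alternative, none had an adjusted p under 0.05, and U6 ran from 0.73 to 1.07. The 24 named members tested kept their sign as well, and under DESeq2 3 members and 1 protein gene had an adjusted p under 0.05. Members higher and lower at an unadjusted p under 0.05 (77 and 6 in the main test) numbered 146 and 14 without a filter and 145 and 15 by DESeq2, which both test the 704 members (20.7% and 20.6% higher, where all genes had 7.20% and 5.68%). They numbered 33 and 9 by limma-voom (14.6% higher, all genes 3.14%), 40 and 4 against Boston terriers alone (12.2%, all genes 1.74%), 85 and 1 against the first library series and 11 and 4 against the second, and the cause was not tested. Under each of these settings the share of members that was lower stayed below that of all genes. Leaving out 1 unit gave 59 to 96 and 4 to 6. There were 59 higher without French bulldog 11 (28.5%, all genes 5.99%) and 96 without French bulldog 9 (44.65%, all genes 8.085%). The lower share ran from 1.667% to 2.899% when 1 unit was left out, where all genes had 2.257% to 3.97%. For the protein lists the main 5 higher and 1 lower (5.43% higher, all genes 6.45%) became 9 higher under DESeq2's size factors (9.78%, all genes 7.21%), 9 by DESeq2 (9.68%, all genes 5.68%), 9 with French bulldogs 2 and 8 as 2 dogs (9.78%, all genes 7.02%), and 0 lower without a filter (all genes 3.19%), so the higher share was below or above that of all genes depending on the setting. Leaving out 1 unit gave 3 to 11 higher and 0 to 3 lower, with 3 lower (3.26%, all genes 3.38%) without French bulldogs 2 and 8 together, and 0 lower without French bulldog 10, boxer 4 or Boston terrier 6.

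Between boxers and Boston terriers the main 2 higher and 0 lower of 328 members (0.610% higher, all genes 1.15%) became 13 and 5 of 703 by DESeq2 (1.85% and 0.711%, all genes 1.74% and 1.36%) and 3 higher and 1 lower of 200 with both breeds alone in the fit (1.5% and 0.5%, all genes 3.37% and 2.86%). Leaving out 1 dog gave 0 to 6 higher and 1 to 3 lower: 0 higher without boxer 1 (all genes 0.641%), 1 without Boston terrier 6 (0.272%, all genes 1.23%), 4 without boxer 3 (1.22%, all genes 1.13%), 5 without Boston terrier 2 (1.33%, all genes 1.31%) and 6 without Boston terrier 7 (1.66%, all genes 0.627%). The class differences that turned in sign were U4 (-0.31 to 0.17), U5 (-0.16 to 0.35), U6 (-0.23 to 0.24) and U12 (-0.40 to 0.17).

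The replicate block over the dogs' numbers gave 94 members higher (41.6%, all genes 3.79%) and 5 lower and a U6 log2 fold change of 1.07. French bulldogs 9, 10 and 11 have no comparison dog of the same number, so they add nothing to the breed difference in that fit. Leaving out French bulldog 9 alone gave 96 members higher and 1.06 for U6. Same-numbered dogs are not stated to be paired. Their deviations correlated at over 0.1 in 3 of 7 pairs (-0.50 to 0.21), and no dog correlated best with its own number. Depth limits the 478 members that were not tested.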

Other observations

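The members with the widest range over the 18 libraries, ranked after their values were seen, were spread over the classes. After the U1 gene ENSCAFG00000058175 came the U6 gene ENSCAFG00000020804, with 0 CPM in French bulldog 6, 27.0 in French bulldog 2 and 22.3 in French bulldog 8. The U5 gene ENSCAFG00000026001 had 40.1 CPM in French bulldog 6 and at most 5.24 CPM in any other library. The U1 gene ENSCAFG00000054750 had 802 CPM in French bulldog 5 and 14.6 CPM in French bulldog 9.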
